A study of Mus musculus with 3 samples.

Results

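Unspliced transcript models that lay over exons of spliced models were examined in long-read sequencing of murine CD4+ T cells. A model is one full-length transcript structure left after clustering and collapsing of reads. A model was taken as a member when it had 1 exon and shared at least 1 nt, on the same strand, with an exon of any model of 2 or more exons in the 3 libraries. By this rule 1317 of 34238 models were members, and they made up 40.9% of the 3222 unspliced models. The naive library held 469 members among 10527 models, the undivided library 435 among 12602, and the 2-division library 413 among 11109.

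The cells came from spleens and lymph nodes of male wild-type (WT) C57BL/6N mice aged 6 to 10 weeks. Naive cells formed one group, and the others were taken 48 h after stimulation through CD3 and CD28 and sorted by dilution of the dye CellTrace Violet into cells with 0 divisions (undivided) and with 2 divisions. Each condition had 1 library, so no test was possible, every difference is one between libraries, and intervals cover counting error only. The deposited models carry no read counts, so the depth and the abundance of each model are unknown. Both activated libraries were labelled with one sequencing cell and the naive library with another, so activation and sequencing cell cannot be told apart. Of the 14 marker genes of CD4 T cells, 14 had a spliced model in the naive library, 12 in the undivided and 12 in the 2-division library. Of the 16 marker genes of B cells, 10, 2 and 2 had one.

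Most messenger RNAs are spliced, cut at a poly(A) site and given a poly(A) tail, and the poly(A) signal AAUAAA upstream of the cut recruits the cleavage machinery. A polyadenylated RNA without introns can come from a gene that lacks them, from cleavage inside an intron, from an RNA whose introns stayed in, or from a fragment of the last exon. An oligo(dT) primer can also pair with a run of A inside an RNA, so the sequence at a 3′ end is a usual check on long-read models.

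The members fell into 3 places, each of which is shown here by the genome sequence at the 3′ ends of models that recurred between libraries. The first 4 windows are A-rich ends of models over first exons, printed with the last 10 nt of the model in lower case and the 20 nt of genome that follow in capitals. They lie on the minus strand of GRCm38 at chr6:129273509-129273538 (Cd69), chr4:129570778-129570807 (Lck), chr6:127148571-127148600 (Ccnd2) and chr1:106711761-106711790 (Bcl2).
Cd69, end in the first intron: gattttcaccAAGAAAAAGAAAATCCTACA
Lck, end in an intron: atgttgtctgAAAAAAAGAAAAAAAAAAAA
Ccnd2, end past the covered introns: ccaagactgtAAGAAAAAAAAAAAAGATGT
Bcl2, distal end: gctaagcttgTAAAAAAAAAAAAAAAAAAA

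The next windows are the last 30 nt of models whose end had a poly(A) signal and no A-rich stretch, with the signal in capitals. Bcl2 again lies over the end of a first exon, Ywhaz, Pcna and Smchd1 lie inside the last exon, and Rpl9 and Gas5 run unspliced over the whole gene. They lie at chr1:106712174-106712203, chr15:36770771-36770800, chr2:132249287-132249316, chr17:71344496-71344525 and chr5:65388365-65388394 on the minus strand, and at chr1:161038507-161038536 on the plus strand for Gas5.
Bcl2, proximal end: agatgaAATAAAgtcgagtttgtagctttg
Ywhaz: tgtaaatgctcAATAAAtattgatgatggg
Pcna: atttaAATAAAgttaacaatttgaaaagtc
Smchd1: gttAATAAAcaacaatcatttctcctcccc
Rpl9: cttttgggagAATAAAagacttatatattg
Gas5: aaattttaccATTAAAgtgtattataacat

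The last window is the splice donor that the Cd69 models run through, the last 10 nt of the first exon and the first 20 nt of the intron at chr6:129275202-129275231 on the minus strand, with the GT of the donor in capitals. In 14 spliced Cd69 models the first intron began at this GT.
Cd69, first donor: gggcagaaggGTaagtcatgtgatttctta

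Where the members lay differed between the naive library and both activated libraries. Members wholly inside a last exon, with 24 nt of slack at each border, numbered 75 of 469 in the naive library, a share of 16.0% (95% Clopper-Pearson interval 12.8 to 19.6%). In the undivided library they numbered 184 of 435, or 42.3% (37.6 to 47.1%), and in the 2-division library 192 of 413, or 46.5% (41.6 to 51.4%). Members over first or internal exons only, touching no last exon, went the other way, with 267 (56.9%, 52.3 to 61.5%) in the naive library, 135 (31.0%, 26.7 to 35.6%) in the undivided and 124 (30%, 25.6 to 34.7%) in the 2-division library. Members that reached into a last exon but ran past it made up 127 (27.1%, 23.1 to 31.3%), 116 (26.7%, 22.6 to 31.1%) and 97 (23.5%, 19.5 to 27.9%). Of these 340 models, 283 ran past on the upstream side only. For the first 2 places the naive interval lay apart from both activated intervals, and the activated intervals overlapped each other. For the last place all 3 intervals overlapped.

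**Figure D1:**
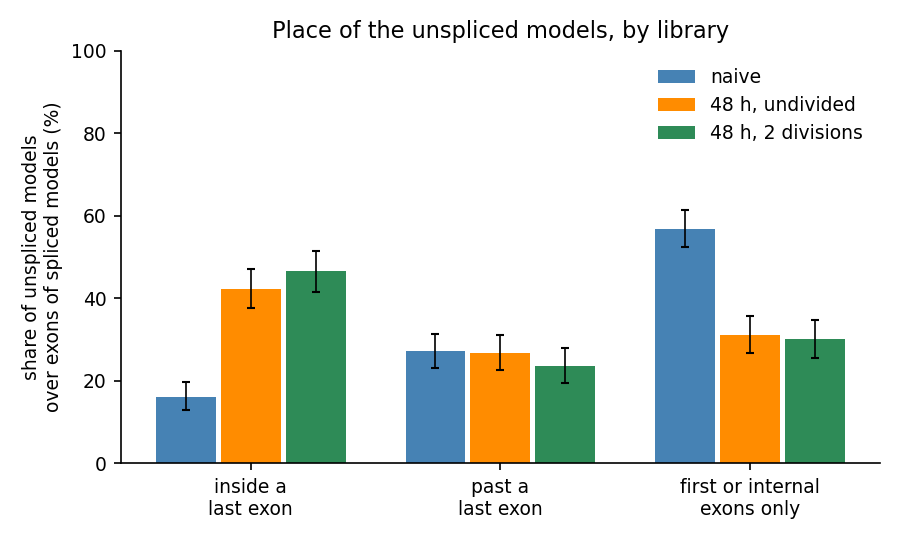
Bars give the share of the unspliced models (%, y axis) in each place (x axis) by library, and error bars are 95% Clopper-Pearson intervals for counting error. The naive bar is the lowest for models inside a last exon (16.0%) and the highest for models over first or internal exons only (56.9%), while the bars for models past a last exon lie between 23.5% and 27.1%.

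The libraries stood in the same order within the 3307 genes that had spliced models in every library. In these genes the members inside a last exon were 49 of 287 in the naive library (17.1%, 12.9 to 21.9%), 138 of 277 in the undivided (49.8%, 43.8 to 55.9%) and 134 of 237 in the 2-division library (56.5%, 50 to 62.9%). The share over first or internal exons only was 64.8% (59.0 to 70.3%), 35.4% (29.8 to 41.3%) and 32.9% (27.0 to 39.3%) in the same order.

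A 3′ end was called A-rich when at least 12 of the 20 nt after it in the genome were A, and A-rich ends moved with the place of the models. In the naive library 72.7% of 466 members with reference sequence had such an end (68.5 to 76.7%), against 46.8% of 432 (42.0 to 51.6%) in the undivided and 47.1% of 412 (42.2 to 52.0%) in the 2-division library. Without these models 127 members remained in the naive library, 230 in the undivided and 218 in the 2-division library, so that the naive library went from the most members to the fewest. The same happened when at least 50% of a model had to be exonic, which left 191, 289 and 282 members. Among the models without an A-rich end the share inside a last exon was 40.2% in the naive library, 69.1% in the undivided and 72.0% in the 2-division library, so the order of the libraries stayed. The part of internal priming in the difference between libraries was not tested.

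The naive library also held the longest members by median. The median member was 2107 nt long in the naive library (95% order-statistic interval 2014 to 2240 nt), 1913 nt in the undivided (1836 to 1993 nt) and 1756 nt in the 2-division library (1681 to 1828 nt). Spliced models stood in the same order, with medians of 2268, 2062 and 1973 nt. Other unspliced models had medians of 1836, 1773 and 1682 nt. Members ranged from 106 to 5851 nt in the naive library, from 107 to 6414 nt in the undivided and from 83 to 7119 nt in the 2-division library. By place, models past a last exon were the longest, with a median of 2289 nt over the 3 libraries (2177 to 2419 nt), then those over first or internal exons with 2024.5 nt (1966 to 2137 nt), then those inside a last exon with 1474 nt (1367 to 1544 nt).

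**Figure D2:**
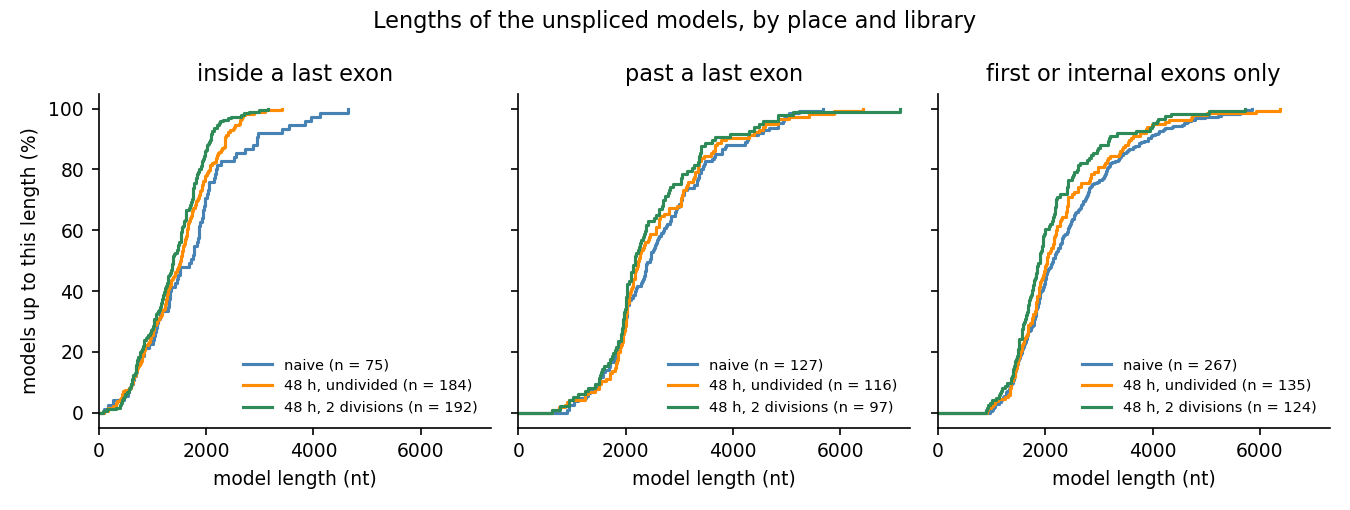
Each panel shows 1 place of the unspliced models, with the share of models (%, y axis) up to a given length (nt, x axis) as a step line per library and n in the legend. The curves for models inside a last exon rise first, at a median of 1474 nt over the libraries, and those for models past a last exon rise last, at 2289 nt.

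The longest member of all came from the 2-division library, 7119 nt at chr13:21813008-21820126 on the plus strand, ended on a spliced 3′ end and had no annotated gene. Ankmy2 (6414 nt), Pfkp, a phosphofructokinase (6372 nt), Btla, an inhibitory receptor (5928 nt), and Gm42031 (5886 nt) followed, all from the undivided library. Erp44 (5851 nt), Slc9a3r1 (5740 nt) and Sh3kbp1 (5691 nt) came from the naive library. Arl6ip5 was the gene among the 10 longest that appeared in 2 libraries, with 5733 nt in the naive and 5720 nt in the 2-division library and the same last base, 97216518 on chromosome 6. Of these 10 models, the unnamed one and Gm42031 had a poly(A) signal before the end, and the other 8 ended before a stretch of 14 to 20 A in 20 nt.

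The distance from each member's 3′ end to the nearest 3′ end of a spliced model separated the members into those at such an end and those far from it. Within 24 nt of a spliced end lay 162 of 469 ends in the naive library (34.5%, 30.2 to 39.0%), 252 of 435 in the undivided (57.9%, 53.1 to 62.6%) and 255 of 413 in the 2-division library (61.7%, 56.9 to 66.5%). On the very base of a spliced end lay 114, 184 and 188 ends (24.3%, 42.3% and 45.5%). More than 1000 nt away lay 286, 155 and 135 ends (61.0%, 35.6% and 32.7%), which left few at intermediate distances. The median size of the distance was 4791 nt (interval 2688 to 7121 nt) in the naive library, 2 nt (1 to 6 nt) in the undivided and 1 nt (0 to 2 nt) in the 2-division library. None of the 1905 unspliced models that were no members ended within 24 nt of a spliced end, which follows almost wholly from the rule for members.

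**Figure D3:**
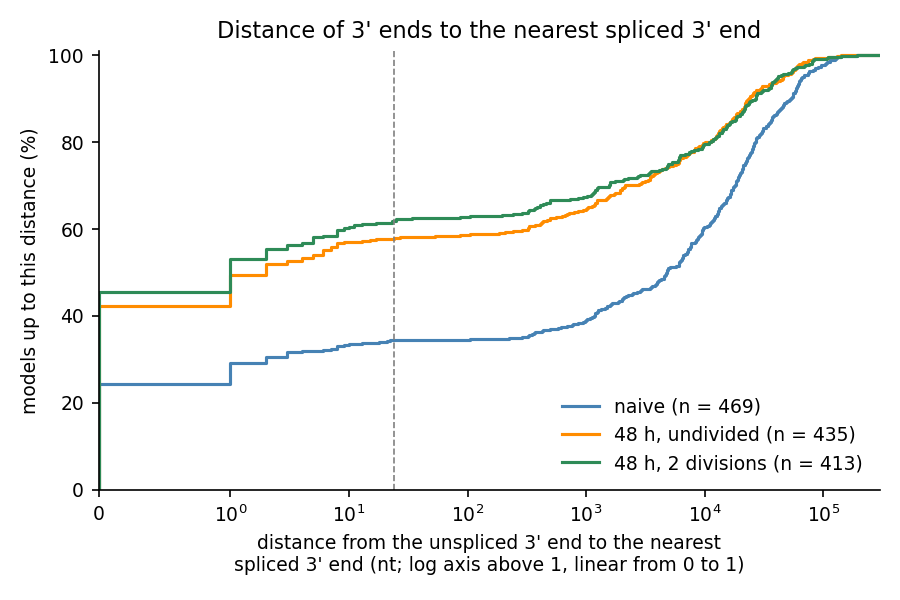
Step lines give the share of unspliced models (%, y axis) whose 3′ end lies within a given distance of the nearest spliced 3′ end (nt, x axis, logarithmic above 1 nt), per library, and the dashed line marks 24 nt. All 3 lines are nearly flat between 24 and 100 nt, and the naive line lies at 34.5% at the dashed line against 57.9% and 61.7%.

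Place and end distance went together, in part by construction. Inside a last exon, 446 of 451 members ended within 24 nt of a spliced end (98.9%, 97.4 to 99.6%), and 326 on its very base. Past a last exon, 223 of 340 did (65.6%, 60.3 to 70.6%). Over first or internal exons only, 0 of 526 did, which the definition of that place fixes, and 523 lay over 1000 nt from any spliced end. Of 519 such models whose gene had a spliced end, 516 ended upstream of the nearest one (99.4%, 98.3 to 99.9%), and the median position of all 519 was -19703 nt from it, where a negative value lies upstream (interval -22018 to -17674 nt).

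Genome sequence at the 3′ ends also differed by place. The signals AATAAA and ATTAAA were sought on the strand of the model within 50 nt upstream of its 3′ end. Inside a last exon, 78.6% of ends held a signal (353 of 449, 74.5 to 82.3%) and 18.3% were A-rich (14.8 to 22.2%). Past a last exon, 50.4% held a signal (45.0 to 55.9%) and 46.6% were A-rich (41.2 to 52.1%). In this place 87 models shared a few starts. Per start 27 of 36, 15 of 25, 14 of 15 and 10 of 11 were A-rich, and 5, 6, 4 and 0 had a signal. Both shares lean on these repeated ends, and the intervals do not allow for that. Over first or internal exons only, 9.39% held a signal (49 of 522, 7.03 to 12.2%) and 94.8% were A-rich (92.6 to 96.6%). For comparison, 68.8% of 30783 ends of spliced models held a signal and 20.8% were A-rich, and 26.5% and 80.2% of the 1878 other unspliced ends. Where a member's end had a signal, its first base lay a median of 22 nt from the end (lowest 6, highest 49 nt).

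**Figure D4:**
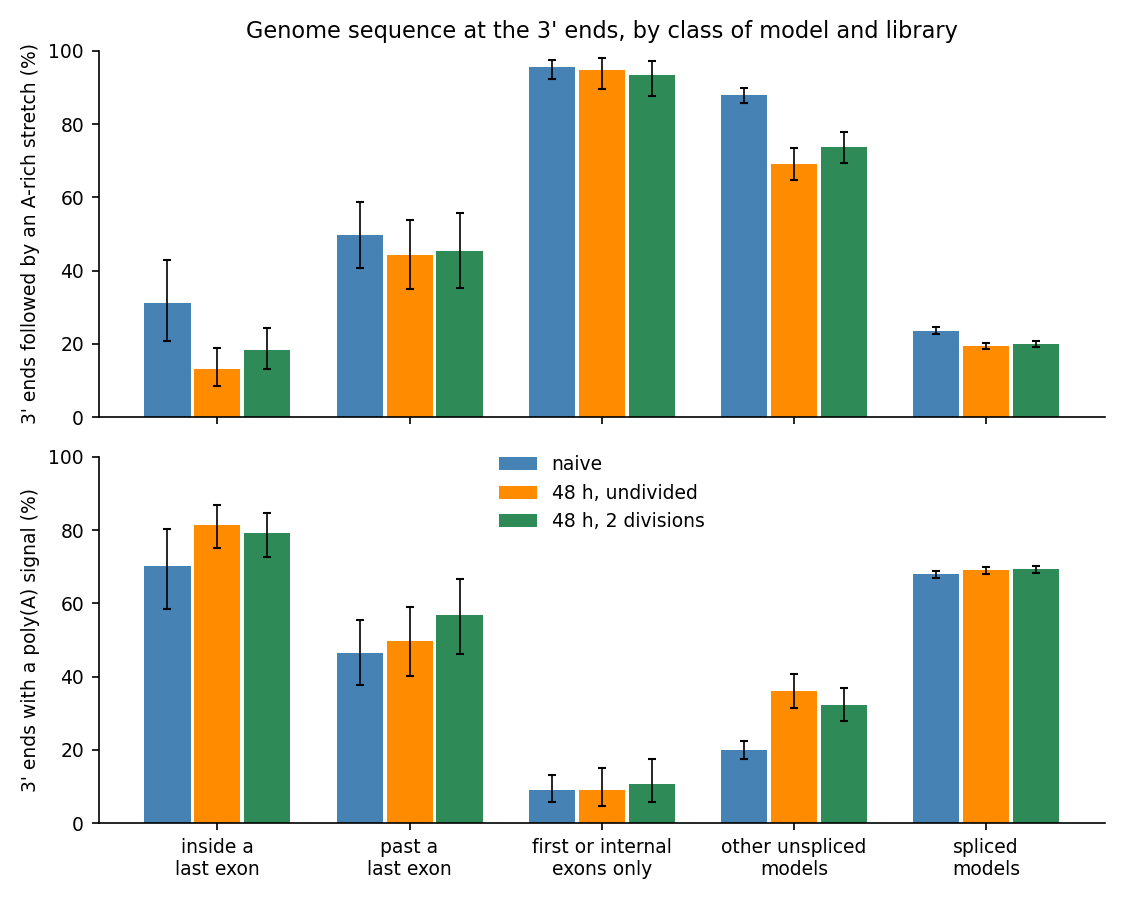
The upper panel gives the share of 3′ ends followed by an A-rich stretch (%, y axis) and the lower panel the share with a poly(A) signal (%, y axis), for the 3 places of the members, other unspliced models and spliced models (x axis), per library with 95% Clopper-Pearson intervals. Models over first or internal exons only stand at 93.5% to 95.5% A-rich and 8.96% to 10.6% with a signal in the 3 libraries, and models inside a last exon at 13.1% to 31.1% and 70.3% to 81.4%.

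The models over first or internal exons were, for the most part, models of a gene's beginning that ran unspliced into an intron. Of the 526, 513 touched a first exon (97.5%, 95.8 to 98.7%), and 470 of 522 on reference chromosomes began within 100 nt of an annotated transcript start (90.0%, 87.1 to 92.5%). Their 3′ ends lay in an annotated intron in 400 cases (76.6%, 72.8 to 80.2%) and in a noncoding exon in 88 (16.9%). A median of 9.4% of their length was exonic in spliced models (interval 8.7 to 10.2%). A start codon lay inside 67.4% (63.2 to 71.4%) and a stop codon inside 8.43% (6.19 to 11.2%). The spliced introns that held their ends had a median of 7480 nt (6097 to 8336 nt).

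Cd69, an early activation marker that holds T cells in lymphoid organs, had 8 such members, more than any other gene. All began on base 129275369 of chromosome 6, held the 148 nt of the first exon and ended between -6952 and -6059 nt from the nearest spliced end. The naive library held models of 1930, 1841 and 1037 nt, the undivided library the same 3 lengths, and the 2-division library models of 1917 and 1841 nt. The end on base 129273529 was found in all 3 libraries, and the annotation has a noncoding exon there. The 20 nt after the ends held 12 to 17 A, and none had a signal. Spliced models of Cd69 numbered 4, 7 and 4.

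Ccnd2, cyclin D2 of the G1 phase, had 5 members that ran over the first 2 introns of spliced models. They were 3532 and 2417 nt long in the naive library, 3492 and 2415 nt in the undivided and 2417 nt in the 2-division library, and all ended between -18357 and -17281 nt from the nearest spliced end, before 15 or 17 A in 20 nt. Each covered the whole coding sequence of a shorter annotated transcript.

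Cd5, an inhibitory coreceptor of T cells, had 3 members in the naive library, 2 in the undivided and 1 in the 2-division library. An end on base 10737424 of chromosome 19 occurred in all 3 libraries, in models of 1498, 1498 and 1494 nt, and coincided with an annotated noncoding end (14 A in 20 nt). Lck, the kinase at the start of T cell receptor signaling, had 1 model per library, of 2820, 2419 and 2823 nt, with 103, 103 and 107 nt of exon. The naive and 2-division models ended within 1 nt of each other, and the undivided model ended on base 129571199 against 129570798 and 129570799 of chromosome 4.

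Krit1 (5 members), Gimap6, a GTPase of lymphocyte survival (4 of its 5), Igtp, an interferon-inducible GTPase (2 of 4), and Son, a splicing factor (3 of 4), also ended early, mostly at bases that recurred between libraries. For Son, models of 2198, 2206 and 2208 nt ended on the same base in the naive, undivided and 2-division libraries, before 20 A in 20 nt. Cd28, the costimulatory receptor, had a model of 5227 nt with 112 nt of exon in the naive library only, at -12983 nt from the nearest spliced end. Il7r, the receptor of the survival cytokine IL-7, and Lef1, a transcription factor of naive T cells, had such a model in the naive library only, of 1591 and 3921 nt. Spliced models numbered 6, 0 and 0 for Il7r and 14, 8 and 5 for Lef1 in the naive, undivided and 2-division libraries.

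Bcl2, which blocks apoptosis, was an exception in its sequence. All 6 members lay over its first exon in spliced models and ran past the donor, and their ends lay between -170430 and -170036 nt from the nearest spliced end of Bcl2. In each library a longer model (2227, 2228 and 2225 nt) ended on base 106711780 or 106711781 of chromosome 1 before 19 or 20 A. A shorter model (1835, 1832 and 1834 nt) ended on base 106712173 or 106712174, with AATAAA beginning 24 or 25 nt before the end and 2 A in the 20 nt after it. Both covered the whole coding sequence of an annotated Bcl2 transcript whose coding sequence lies in 1 exon, and both ended in an annotated 3′ UTR. The spliced models of Bcl2 numbered 1, 1 and 2.

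**Figure D5:**
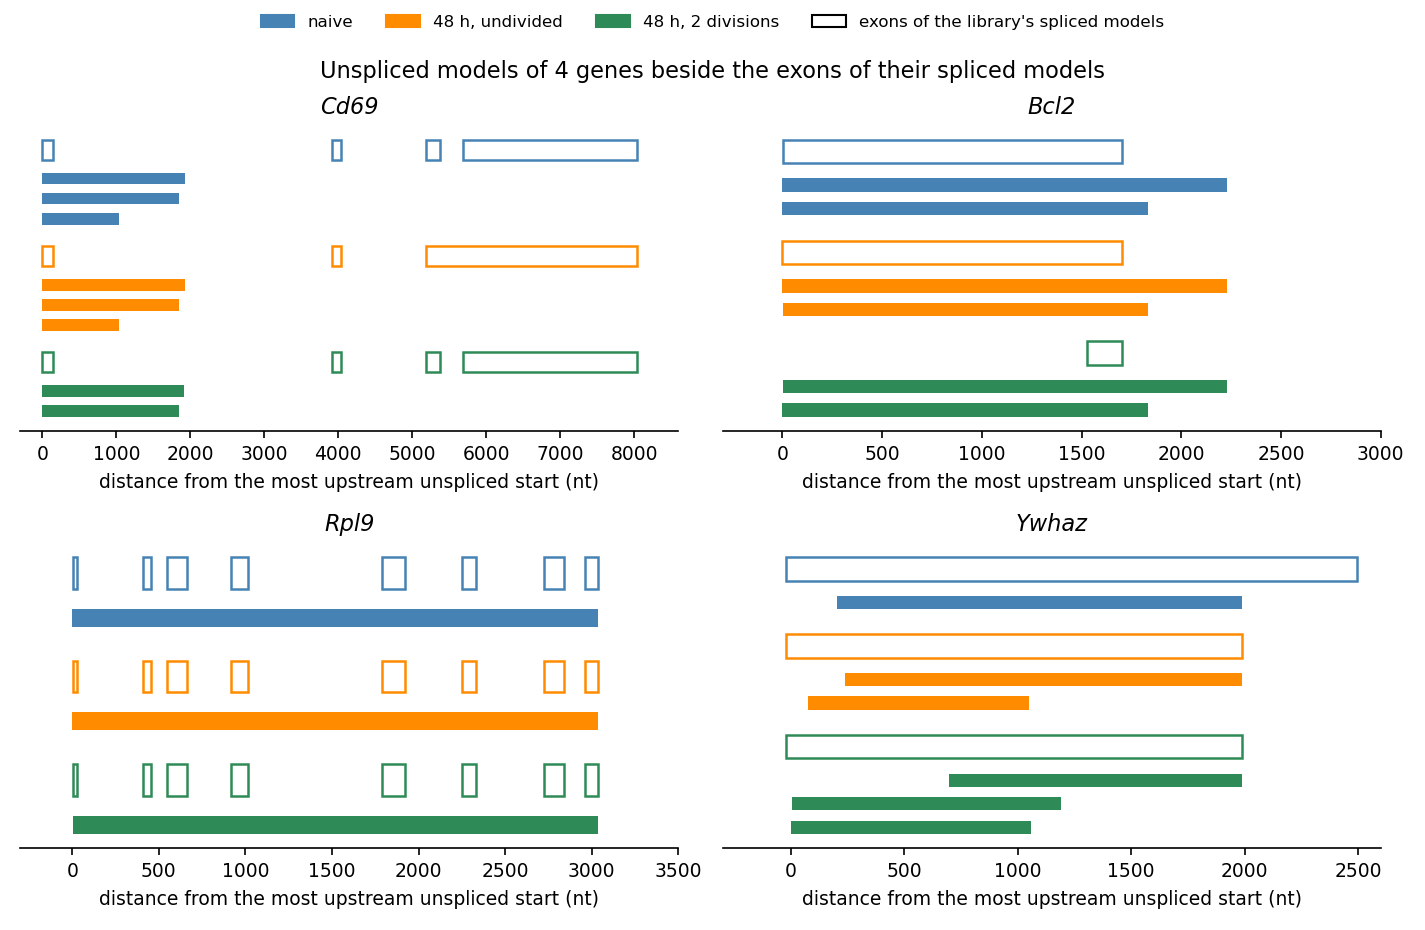
For each of 4 genes, filled bars are the unspliced models and open boxes the merged exons of the library's spliced models, by distance from the most upstream unspliced start (nt, x axis, 5′ to the left), and library by color. Cd69 models stop in the first intron, Bcl2 models pass the donor of the first exon (the axis stops before the last exon), Rpl9 models cover every intron, and Ywhaz models lie inside the merged last exon, where the boxes also merge alternative exons.

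Bcl2 supplied 3 of the 16 models over first or internal exons that had a signal and no A-rich end (16 of 522, 3.07%, 1.76 to 4.93%). The others, named here because of their values, were 3 models over Ncln, 3 over St7l, 2 over Pgm1 and 1 each over Add3, Gimap5, Prmt6, Rasa3 and Zkscan14. The Ncln models, with ATTAAA and of 1912, 1913 and 1911 nt in the naive, undivided and 2-division libraries, lay for most of their length in the annotated neighbor S1pr4, a lipid receptor whose coding sequence lies in 1 exon. The St7l models of 1980, 1974 and 1968 nt likewise recurred in all 3 libraries, ending after ATTAAA on base 104866459 or 104866458 of chromosome 3.

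Members inside a last exon lay mostly in the 3′ part of annotated genes. Their 3′ ends lay in an annotated 3′ UTR in 381 of 449 cases (84.9%, 81.2 to 88.0%), 5 began within 100 nt of an annotated start (1.11%, 0.363 to 2.58%), 206 covered a stop codon (45.9%, 41.2 to 50.6%), and 8 covered a whole coding sequence (1.78%, 0.772 to 3.48%). A median of 73% of the length of the longest last exon that held them was covered (interval 70.3 to 75.8%). In the 3 libraries 44.0% (32.5 to 55.9%), 51.6% (44.2 to 59.0%) and 47.9% (40.7 to 55.2%) of their ends had a member of another library within 24 nt, and these intervals overlap.

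Ywhaz, the 14-3-3 zeta adaptor, had 6 members and all lay inside a last exon. The naive library held 1 of 1783 nt, the undivided library 2 of 1747 and 978 nt, and the 2-division library 3 of 1288, 1184 and 1060 nt. The end at base 36770771 of chromosome 15, or 1 base from it, occurred in all 3 libraries with AATAAA before it, and 5 of the 6 ends had that signal and 4 or 5 A in the 20 nt after them. The sixth, of 1184 nt, ended before 15 A.

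Smchd1, a chromatin protein of X inactivation, had a model of the same 707 nt in all 3 libraries, from base 71344496 to base 71345202 of chromosome 17, beside 2 naive models over other exons. Tpm4, a tropomyosin, had models of 848, 848 and 844 nt with the same 5′ base. Gpr132, a lipid-sensing receptor, had 4 members inside its last exon and 1 past it, with ends at base 112850876 in every library after ATTAAA. Actr2, a subunit of the Arp2/3 actin-nucleating complex, had 2 in each activated library and 0 in the naive library, with spliced models in all 3 (4, 6 and 4).

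In 24 genes a member over first or internal exons in the naive library stood against a member inside a last exon in an activated library, and in 8 genes the reverse held. The numbers of genes of each kind already differed, since 243 genes had a naive member over first or internal exons and 67 a naive member inside a last exon, so the 24 and 8 say nothing of a change of place within genes. Cd28 was one of the 24, with models of 2692 and 2265 nt in its last exon in the undivided and 2-division libraries after AATAAA. Hnrnpa2b1, which binds and processes nuclear RNA, had a naive model of 2506 nt ending before 14 A, and models of 1893 and 1623 nt after AATAAA in the undivided and 2-division libraries. These 1893 and 1623 nt models also touched internal exons and covered 3 and 4 introns of other spliced models. The 1623 nt model ended in an annotated intron. Hnrnph2, a relative that acts in splicing, had the same order of places, with 3371 nt in the naive library and 2074 and 1634 nt in the activated libraries.

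Few members inside a last exon ended away from a spliced end, 5 of 451. They were a naive model of 1072 nt on chromosome 17 with no annotated gene (-1503 nt from the nearest spliced end), Btbd19 in the undivided library (-662 nt), models over Trbj1-3, a joining segment of the T cell receptor beta locus, in the undivided and 2-division libraries (-415 and -34 nt), and Thumpd1 in the 2-division library (-25 nt). Of the 5, none had a signal and 4 ended before 12 to 14 A.

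Members past a last exon mostly kept introns. Of 340, 277 covered at least 1 intron of a spliced model from donor to acceptor (81.5%, 76.9 to 85.5%), against 16.7% (13.6 to 20.2%) over first or internal exons and 5.76% (3.80 to 8.33%) inside a last exon. The distinct introns they covered had a median of 289.5 nt (251 to 326 nt), where all introns of spliced models had medians of 1139, 1149 and 1136 nt in the naive, undivided and 2-division libraries. A model can only cover introns shorter than itself, so covered introns are short in part by construction. Among all members the share that covered an intron was 31.8% (27.6 to 36.2%), 30.8% (26.5 to 35.4%) and 26.2% (22.0 to 30.7%), and these intervals overlap. Among models without an A-rich end it was 48.8%, 27.8% and 20.6%. Introns are counted as distinct pairs of donor and acceptor, so alternative introns of one gene can overlap.

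Gas5, a noncoding host gene of small nucleolar RNAs, was covered from its annotated start to its annotated end in all 3 libraries, in models of 3372, 3371 and 3371 nt with 10 introns each. Its spliced models numbered 3, 10 and 10. Snhg5, another host gene, had an unspliced model over 4 introns in the undivided library (1834 nt), and these were the 2 of 4 genes of that kind with a spliced model that had a member. Over all genes with a spliced model in any library the share was 11.4%, and 4 genes cannot show a difference from it. Eif4a2, an RNA helicase of translation initiation, had the most introns in a model, 15 over 5414 nt in the undivided library, and Aup1, a protein of the endoplasmic reticulum and lipid droplets, had 14 over 2952 nt in the naive library. These models all ended on a base of a spliced end after AATAAA or ATTAAA, and none was A-rich.

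BC003965 had 5 members past its last exon, which kept its 1 intron and began on the same base, 25184588 of chromosome 17. Models of 953, 947 and 943 nt occurred in the naive, undivided and 2-division libraries, and longer ones of 2014 and 2012 nt with AATAAA in the naive and 2-division libraries. S1pr1, the receptor that lets T cells leave lymph nodes, had 2 naive models of 4471 and 4215 nt that kept its intron and covered the whole coding sequence, with AATAAA before the end, and none in the activated libraries, where spliced models numbered 0 and 1 against 7 in the naive library.

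Another 87 members shared only 4 starts, each used by 10 or more members, and all lay past a last exon (25.6% of the members in that place). One start on chromosome 6, base 41201843 of the minus strand, had 36 models of 1301 to 5673 nt with 14 distinct ends, 13 in the naive, 11 in the undivided and 12 in the 2-division library. Starts at base 86816129 of chromosome 11 and base 4066103 of chromosome 19 had 25 and 15 models in all 3 libraries. These 3 were assigned no annotated gene. The last, base 121833113 of chromosome 8 in Gm42047, had 11 models, 6 in the undivided, 5 in the 2-division and 0 in the naive library. Gm42047 was the gene with the most members, 9 in the undivided and 7 in the 2-division library. A-rich ends made up 27 of 36, 15 of 25, 14 of 15 and 10 of 11 of these models, and their repeated ends weigh on counts of models, not on counts of genes.

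Members were spread over many genes. They belonged to 374 genes in the naive library, 355 in the undivided and 342 in the 2-division library, 757 in all, and 127 models had no annotated gene. This order was lost without A-rich ends, with 107, 208 and 198 genes, and with at least 50% of a model exonic, with 137, 227 and 228 genes. Of the genes with a spliced model, 7.28% in the naive library (329 of 4520), 6.03% in the undivided (325 of 5388) and 6.01% in the 2-division library (299 of 4978) also had a member there, and 11.4% over the 3 libraries (757 of 6627). For members inside a last exon these shares were 1.35%, 3.01% and 3.19%, and 4.62% over the 3 libraries. For members past a last exon they were 1.48%, 1.17% and 0.904%, and 2.38%. For members over first or internal exons they were 4.80%, 2.10% and 2.13%, and 5.34%. Most genes had members of 1 kind of place, 252 inside a last exon only, 137 past one only and 308 over first or internal exons only, and 60 had more than 1 kind.

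Libraries shared part of these genes. The undivided and 2-division libraries had 154 in common (43.4% and 45.0% of their genes), the naive and undivided 116 (31.0% and 32.7%), the naive and 2-division 109 (29.1% and 31.9%), and 65 genes occurred in all 3. In 51 genes the 3 libraries had a member with its 3′ end within 24 nt. For the members' ends, 39.4% in the naive (35 to 44.0%), 55.6% in the undivided (50.8 to 60.4%) and 57.6% in the 2-division library (52.7 to 62.4%) had a member end of another library within 24 nt, against 80.6%, 84.4% and 87.0% of spliced models measured among themselves. Spliced ends were sought among far more ends than member ends were. The shares of members and of spliced models are therefore not on a like footing.

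After Gm42047 and Cd69, Ablim1, Bcl2, Cd5, Cytip and Ywhaz had 6 members each, and BC003965, Ccnd2 and Gimap6 had 5. Ablim1, an actin-binding protein, had 5 in the naive library, 1 in the undivided and 0 in the 2-division library, and Cytip, which binds cytohesin in lymphocytes, had 3, 0 and 3. Arhgap45 had its 3 members in the naive library only, with 25, 7 and 4 spliced models. In the undivided library Hspa9, a mitochondrial chaperone, and Igtp had 3 each, and in the naive library they had 0 and 1.

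Members are given below for genes grouped by role, and a difference between roles in the kind of member was not tested. Each count of genes with a member stands against the shares of all genes given above. Counts of A-rich ends, signals and starts stand against the shares of each place given above. Among genes of naive and quiescent T cells, 8 of 15 with a spliced model in the naive library had a member, 1 of 11 in the undivided and 1 of 11 in the 2-division library. Btg1 and Ets1 also had a 2-division member each, without a spliced model in that library. The 8 were Btg1, Btg2, Dgka, Ets1, Fyb, Il7r, Lef1 and S1pr1, with 12 naive models, 8 of them past a last exon. Ccr7, the lymph node homing receptor, had none in the naive library, but 2 members in the undivided and 1 in the 2-division library, all inside its last exon and 1137, 1639 and 1759 nt long. Dgka, a lipid kinase that limits diacylglycerol signals, had naive models of 2991 and 3057 nt.

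Among genes induced by T cell receptor stimulation, 2 of 12 had a member in the naive library (Batf and Cd69), 9 of 23 in the undivided and 6 of 23 in the 2-division library. Those inside a last exon, 8 models of Bhlhe40, Cish, Irf4, Tfrc and Tnfrsf9, were all from activated libraries, all had a signal and none was A-rich. In the naive library Cish had 1 spliced model and the other 4 genes had 0. More models of the list, 12, lay over first or internal exons only, with 4 in the naive, 5 in the undivided and 3 in the 2-division library. All 12 were A-rich and 0 had a signal. Among all members over first or internal exons only, 94.8% were A-rich and 9.39% had a signal. Inside a last exon the shares were 18.3% and 78.6%. Counts as small as those of the list cannot show a difference from these shares. Irf4, a transcription factor of activated T cells, had models of 2219 and 2989 nt in the undivided and 2-division libraries, and Tfrc, the transferrin receptor, of 2539 and 2642 nt. Gzmb, a cytotoxic protease, had 1 unspliced model over its whole coding sequence in the undivided library, 3344 nt over 6 introns with AATAAA.

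Where cytosolic ribosomal protein genes had a member, it was mostly one that kept introns. Of 69 with a spliced model in any library, 14 had a member (3 of 34 in the naive library, 7 of 60 in the undivided and 8 of 53 in the 2-division library), and 13 of the 14 had one past a last exon. These 19 models covered 3 to 7 introns and a whole coding sequence each, all 19 began within 100 nt of an annotated start, 18 ended at a spliced end, 16 had a signal and 2 were A-rich. Rpl9 had models of 3036, 3037 and 3034 nt over 7 introns in the naive, undivided and 2-division libraries, with ends within 1 nt. Rpl10 had 2279 and 2273 nt in the naive and undivided libraries, and Rps27a 2014 and 2017 nt in the undivided and 2-division libraries.

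RNA processing genes had their members mainly inside the last exon. Over the 3 libraries 12 of 33 had a member, 10 of them inside a last exon, and per library the counts were 7 of 28, 8 of 33 and 6 of 29. Of the 18 models inside a last exon, 14 had a signal and 4 were A-rich. Hnrnpf had 1, 2 and 1 members of 755 to 1852 nt, and Hnrnpk, another RNA-binding protein, had 272 and 528 nt in the undivided and 2-division libraries, ending on the same base. Mbnl1, a splicing regulator, had models of 2182 and 2456 nt that ended 1 nt apart in the naive and 2-division libraries before 20 and 19 A, and others of 2849 and 1930 nt that ended 367 and 365 nt downstream of the nearest spliced end, after AATAAA. Rbm39 and Srsf11, other splicing factors, had 1 naive member each.

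Among DNA replication genes, 0 of 11 had a member in the naive library, 3 of 20 in the undivided and 2 of 20 in the 2-division library. Over all genes the shares were 7.28%, 6.03% and 6.01%, and so few genes cannot show a difference from them. Pcna, the sliding clamp of replication, had a model of the same 328 nt in both activated libraries and another of 451 nt after 2 divisions. Fen1, the flap endonuclease, had 1860 and 1009 nt with the same last base before 16 A. Mcm6, a subunit of the replicative helicase, had a model of 3391 nt over its first exon in the undivided library.

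Glycolysis genes had 8 members over 6 of 15 genes. Pkm, pyruvate kinase, had 417 and 419 nt in the last exon in the undivided and 2-division libraries and 0 in the naive, with spliced models numbering 3, 23 and 18. Ldha, lactate dehydrogenase, had 1 naive model of 2185 nt before 17 A, and Pfkl, a phosphofructokinase, the same model of 2137 nt in the naive and 2-division libraries before 18 A. Ribosome biogenesis genes had none, 0 of 14, 0 of 17 and 0 of 16, where 7.28%, 6.03% and 6.01% of all genes had a member. With so few genes, 0 is close to these shares.

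Of the CD4 T cell markers with a spliced model, 5 of 14 had a member in the naive library, 4 of 12 in the undivided and 4 of 12 in the 2-division library. Among them were Cd28, Cd5, Lck and, in the naive library, Trbc1, a constant region of the T cell receptor beta chain. Their 11 models over first or internal exons all began within 100 nt of an annotated start and all had an A-rich end. Among all models in that place 90.0% began at such a start and 94.8% were A-rich, so neither trait is particular to these markers. Of their 5 models inside a last exon, 1 was A-rich and 2 had a signal, and both of their 2 models past a last exon were A-rich.

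Markers of other cells that the cell populations could hold were counted where any library had a spliced model. A member occurred for 1 of 10 B cell, 1 of 4 myeloid and 1 of 5 regulatory T cell markers. Over all genes the share was 11.4%, and so few markers cannot show a difference from it. The study's methods describe isolation of CD4+ T cells with a kit before culture or sorting. For the division experiment they describe a sort by dye of the 48 h cells, and purified naive cells put in TRIzol on the day of purification. Of B cell markers, H2-Aa had 1 naive model of 3152 nt over its first exon, and 10 of 16 B cell markers had a spliced model in the naive library. Among myeloid markers Mpeg1 had 1 naive model of 4128 nt, over a whole coding sequence that lies in 1 exon, and its spliced models numbered 0, 2 and 1. Of regulatory T cell markers Tnfrsf18, which stimulation also induces, had 1 in the undivided library. Markers of CD8 T and NK cells (0 of 6) and of erythroid cells and platelets (0 of 2) had none. The part of such cells in the members was not tested.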

How the data were processed

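Sequences of 3 PacBio Iso-Seq libraries were deposited as transcript models, with positions of exons on GRCm38 and no counts or levels. Per the study's methods, ccs consensus reads were trimmed of primers by lima, filtered by the authors for poly(A) tails with isoseq3 refine, clustered, placed on the genome by pbmm2, collapsed, and annotated by SQANTI3. Further tools in the submitters' notes are Subread and minimap2. Collapsing merges reads with near-identical structures into 1 model, so a model count is not a read count.

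Overlaps, distances and end sequences were computed with Python 3.11.15 (numpy 2.4.6, scipy 1.17.1) and drawn with matplotlib 3.10.9. Of 68209 introns, 98.2% had GT and AG at their ends in the reference, and 0 models ran past a chromosome end. The 7 members on patch or unplaced sequences have no end sequence. A distance is that between 3′ ends, with 24 nt as the limit for the same end. A member's gene is that of the spliced models it shared the most nt with, or else its annotated gene in GENCODE M21. On 1000 simulated models the place and the distance were recovered in 1000. Each of these lay beside its own spliced model without neighbors or other isoforms, and models past a last exon were simulated on the upstream side only. The simulation therefore says nothing of overlapping isoforms or of the other ways to run past a last exon. Shares have exact 95% Clopper-Pearson intervals and medians order-statistic intervals, both for counting error only, since models of a gene are not independent.

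Groups came from the sample labels. Named are the 10 genes with the most members and the 5 with the most per library, the 10 longest members, up to 10 genes with an end in all 3 libraries, the 5 models with the most introns, the 5 inside a last exon farthest from a spliced end, and genes of fixed lists by role. Some named genes are not reported here. The members and lists were chosen with earlier results of these data known. Alternatives were a larger overlap, other slack, distance, A and signal limits, spliced models of the same library, annotated transcripts, models without A-rich ends, and models without shared starts.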

Additional observations from a re-analysis of the deposited data

How the results depend on the processing

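Of 129 alternative values, 73 stayed (shares and medians within the counting interval, counts within 1.5 times) and 56 moved, with the order of the libraries given here as naive, undivided and 2 divisions. Without A-rich ends the members numbered 127, 230 and 218 in 107, 208 and 198 genes, 40.2%, 69.1% and 72.0% lay inside a last exon, 83.5%, 88.7% and 91.3% ended near a spliced end, 82.7%, 87.8% and 91.7% had a signal, and 48.8% of naive and 20.6% of 2-division members covered an intron. The median length was then 1693.5 and 1599.5 nt in the activated libraries, and 47.2% of naive ends recurred elsewhere. With at least 50% of the length exonic, naive and undivided members numbered 191 and 289 in 137 and 227 genes, the activated medians were 1817 and 1622 nt, and 46.3%, 27.2% and 28.7% were A-rich. Against spliced models of the same library, 36.8% and 38.3% of activated members lay inside a last exon, 27.3%, 49.7% and 47.7% ended near a spliced end, and 25.8% of naive and 17.4% of 2-division members covered an intron. Against annotated transcripts, 29.9%, 48.7% and 47.2% ended near an end and 27.3%, 21.8% and 17.9% covered an intron. With no slack 36.1% of undivided members lay inside a last exon, and by the 3′ end alone 40.1%, 63.7% and 66.1%. With 14 A as the limit 66.7% of naive and 40.5% of 2-division ends were A-rich, and with a run of 6 A 56.4%, 33.6% and 35.2%. With 12 signal variants 43.6%, 63.0% and 63.8% had a signal. Without the shared starts, an alternative chosen after seeing the data, 25.3% of undivided and 20.6% of 2-division members covered an intron. Except where a value shows it by construction, the cause was not tested.

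In all these settings the naive library had the lowest share inside a last exon and the lowest share of ends near a spliced end, where values of all 3 libraries are given. The order of the number of members and of genes changed without A-rich ends and with the larger overlap, and that of the share covering an intron against the same library, where it was 25.8%, 27.4% and 17.4%. The undivided library passed the 2-division library in ends near a spliced end against the same library (49.7% and 47.7%) and annotated transcripts (48.7% and 47.2%). It did so in A-rich ends with 14 A as the limit (42.1% and 40.5%) and without the shared starts (44.8% and 44.4%). No paired analysis was possible because each condition had 1 library and no test was run, and leaving a library out would leave its group empty. The files hold no read counts, so a model absent from a library was not detected at an unknown depth.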
